A study of Mus musculus with 7 samples.

Results

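The glutathione S-transferases examined here are *Gsta1*, *Gsta2*, *Gsta3*, *Gsta4*, *Gstm1*, *Gstm2*, *Gstm5*, *Gsto1*, *Gstp1* and *Gstt1*. These 10 genes were taken by symbol from the 23284 gene symbols measured by RNA-seq in mouse skin papillomas. All 10 were listed in each of the 7 papillomas, and 9 passed the filter on low values, a mean across all papillomas of 0.5 FPKM or more. *Gstt1* did not.

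Cytosolic glutathione S-transferases join the tripeptide glutathione to reactive electrophiles, which makes them more soluble and ready for export. They are grouped by sequence into classes that give the genes their names, here alpha (*Gsta*), mu (*Gstm*), pi (*Gstp*), omega (*Gsto*) and theta (*Gstt*). Their substrates include the epoxides formed when polycyclic aromatic hydrocarbons such as DMBA are oxidized, and many of the genes are known targets of the transcription factor Nrf2, which is encoded by *Nfe2l2*.

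Papillomas came from 4 CTR and 3 TG mice in a C57Bl/6 background, with 1 library a mouse. The *tetO-Nanog* allele was present in CTR and TG mice alike. TG mice also carried *K5-rtTA*, a transactivator driven by the promoter of keratin 5, a gene of basal keratinocytes, and CTR mice lacked it. Both groups received doxycycline (DOX, 2 mg/ml in drinking water), the carcinogen DMBA and the tumor promoter TPA. The mice were 8 to 10 weeks old at the start, and papillomas were taken when a mouse reached a humane endpoint or, at the latest, after 30 weeks, so the age at collection may differ between mice. According to the paper, many TG mice had to be killed early, and the labels give no time of collection, so time and group cannot be told apart. DMBA, TPA and DOX were common to both groups, so by design the groups differ by the transactivator and the *Nanog* expression it allows. No papilloma of untreated skin or without DOX was compared here.

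*Nanog* had between 2.70 and 12.7 FPKM in CTR papillomas and between 36.9 and 66.9 in TG papillomas, the direction given by the labels. Markers of basal keratinocytes were present in every papilloma, with sums over the 7 markers between 6660 and 12963 FPKM. TG 3 stood apart from the other papillomas. Its 8 skeletal muscle markers summed to 655 FPKM, against 8.75 to 13.9 in the other 6 papillomas, its 7 fibroblast markers to 797 against 91.2 to 167, and its 6 listed suprabasal keratinocyte markers to 4284 against 7351 to 12269. Differences of the members and medians of the gene lists are therefore also given without TG 3. Its 7 sebaceous gland markers summed to 52.7 FPKM, against 5.02 to 9.97 in the others, and its 7 leukocyte markers to 44.7 against 20.96 to 25.5. The 6 endothelial markers summed to between 8.39 and 12.9 FPKM in CTR, and TG 1 to 3 had sums of 20.96, 11.2 and 27.2. All 6 had a higher mean log2 value in TG, 3 of them at an unadjusted p under 0.05, and for 2 every TG papilloma lay above every CTR papilloma. Of all genes past the filter, 4.86% were higher at that p, and 4.93% had every TG papilloma above every CTR papilloma. The part of these markers in the values below was not tested. In RNA from whole papillomas, fewer cells of a type and less RNA for each cell cannot be told apart. The files hold no read numbers. The widths of the authors' confidence intervals implied between about 10070000 and 15710000 reads on genes, with CTR 3 and TG 1 deeper than the rest.

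Several of these genes lie side by side and resemble each other closely. *Gsta4* (chr9:78191966-78209349), *Gsta1* (chr9:78230669-78242683) and *Gsta2* (chr9:78331020-78347145) lie within one stretch of chromosome 9, with 21319 bases between *Gsta4* and *Gsta1* and 88336 between *Gsta1* and *Gsta2*. The mu genes *Gstm5* (chr3:107895854-107898685), *Gstm2* (chr3:107981702-107986436) and *Gstm1* (chr3:108012250-108017973) lie together on chromosome 3. *Gsta3* (chr1:21240589-21265559), *Gstp1* (chr19:4035411-4037912), *Gsto1* (chr19:47854989-47864788) and *Gstt1* (chr10:75783813-75798584) complete the list. These are gene positions on GRCm38 as the files give them.

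The resemblance matters for reads of 40 bases. The coding sequences of *Gsta1* and *Gsta2* were 98.0% identical and differed at 13 positions. The stretch that runs from coding position 449 to 508, read from GENCODE transcripts on GRCm38 (*Gsta1* on the plus strand, *Gsta2* on the minus strand), shows what a read can use to tell them apart, with 5 of the differing bases in capitals.
Gsta1: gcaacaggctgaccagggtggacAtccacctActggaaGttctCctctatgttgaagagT
Gsta2: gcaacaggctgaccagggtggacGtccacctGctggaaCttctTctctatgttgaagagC
Elsewhere the pair is identical over up to 196 bases in a row. Of all 40-base stretches of the *Gsta1* transcript, 91.0% also occurred in a transcript of another gene, 85.5% in *Gm3776*, and 418 of the 836 stretches occurred in *Gsta2*. The share was 71.0% for *Gsta2*, 64.8% for *Gstp1*, 28.4% for *Gstm1* and 13.2% for *Gstm2*. It was 0% for *Gsta3*, *Gsta4*, *Gstm5*, *Gsto1* and *Gstt1*. For *Gstp1* the other genes were *Gstp2* (64.8%) and *Gstp-ps* (48.8%). For *Gstm1* the largest part was shared with *Gstm2-ps1* (21.7%). *Gstp-ps* and *Gstm2-ps1* were not among the measured symbols, so no sum below includes them. With up to 2 mismatches allowed, the number accepted in alignment, 2.05% of *Gsta3* stretches and none of those of *Gsta4*, *Gstm5* or *Gsto1* matched another listed transferase gene.

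**Figure D1:**
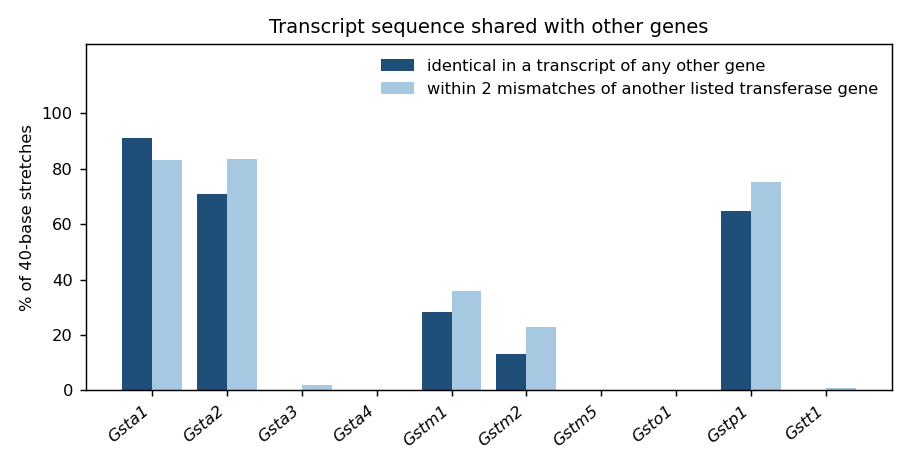
Share of the 40-base stretches (the read length) of each member's transcript, in percent, that occur unchanged in a transcript of any other gene (dark bars) or within 2 mismatches in another listed transferase gene (light bars). *Gsta1*, *Gsta2* and *Gstp1* share most of their sequence, whereas *Gsta4*, *Gstm5* and *Gsto1* share none.

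How reads with several matches were divided is not given in the sources used here, so the separate values of *Gsta1*, *Gsta2* and *Gstp1* are uncertain. *Gm3776* was listed at between 88.6% and 95.6% of the *Gsta1* value in every papilloma. For these genes sums over the near-identical copies are given as well. The copies were chosen after their values had been seen.

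*Gsto1* and *Gsta4* far exceeded the other members in level. FPKM is per length of transcript, so levels of different genes can be compared. The levels of *Gsta1*, *Gsta2* and *Gstp1* remain uncertain because of the shared reads. Over the 7 papillomas the mean was 2267 FPKM for *Gsto1*, 1158 for *Gsta4*, 177 for *Gsta1*, 76.5 for *Gstp1*, 37.6 for *Gsta2*, 34.0 for *Gstm1*, 12.04 for *Gstm2*, 11.5 for *Gsta3*, 10.5 for *Gstm5* and 0.208 for *Gstt1*. *Gsto1* ranked 13 among 23122 symbols and *Gsta4* ranked 37, so these 2 members were among the most abundant transcripts of the papillomas. Together they made up between 88.6% and 94.7% of the summed FPKM of the 10 members. The sum itself was 3729, 4614, 4684 and 3966 FPKM in CTR 1 to 4 and 3015, 2341 and 4136 in TG 1 to 3, with TG 3 inside the CTR range.

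Of the 9 steps between neighbors in this order, 6 went the same way in 7 of 7 papillomas (exact sign-flip permutation test, two-sided, p = 0.0156, the smallest that 7 papillomas allow, adjusted p = 0.0234 over 9 comparisons). The order was itself taken from these 7 papillomas, so the p-values are no separate support for it. Steps that involve *Gsta1*, *Gsta2* or *Gstp1* also depend on how shared reads were divided. The steps from *Gsta2* to *Gstm1* and from *Gstm2* to *Gsta3* held in 4 of 7 papillomas (exact p = 0.406, adjusted p = 0.457 for each). The step from *Gsta3* to *Gstm5* also held in 4 of 7 (exact p = 0.75), which were all CTR papillomas and no TG papilloma. Likewise *Gstm2* exceeded *Gsta3* in every TG papilloma, but in CTR only in CTR 3. The test pooled both groups, so it cannot tell such a split by group from a lack of order. With the groups pooled, these 3 pairs of neighbors did not differ beyond the spread between papillomas.

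No member passed the adjusted threshold between TG and CTR papillomas, although 8 of 9 had a lower mean log2 value in TG. Among all genes tested none passed either. This includes *Nanog*, the induced gene, although its difference was 3.45 (log2) and every TG papilloma lay above every CTR papilloma. Missing the adjusted threshold therefore does not show that a gene was unchanged. After adjustment limma called 0 of 12299 genes higher in TG (0.0%) and 0 lower (0.0%). Without adjustment (p under 0.05), 598 genes were higher (4.86%) and 241 lower (1.96%). Of the 9 members tested 0 were higher and 5 were lower (*Gsta1*, *Gsta2*, *Gsta3*, *Gstm1* and *Gstp1*). These 5 are not independent of each other, since *Gsta1* and *Gsta2* share reads. The members were also chosen with earlier results of these data known. Under upper-quartile scaling the counts over all genes were 514 higher and 419 lower, and under quantile normalization 403 higher and 551 lower. The median difference of the members was -0.64 on the log2(FPKM + 0.5) scale, and that of all genes tested was 0.06, with 39.97% of all genes having a lower mean log2 value in TG. For 3 members (*Gsta3*, *Gsta4* and *Gstm1*) every TG papilloma lay below every CTR papilloma, as it did for 274 of all genes (2.23%). No tested member had every TG papilloma above every CTR papilloma, against 606 of all genes (4.93%). Adjusted p-values of the members ranged from 0.564 to 0.988 in limma. In permutation tests of single genes the smallest p that 4 against 3 papillomas allow is 0.0286.

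**Figure D2:**
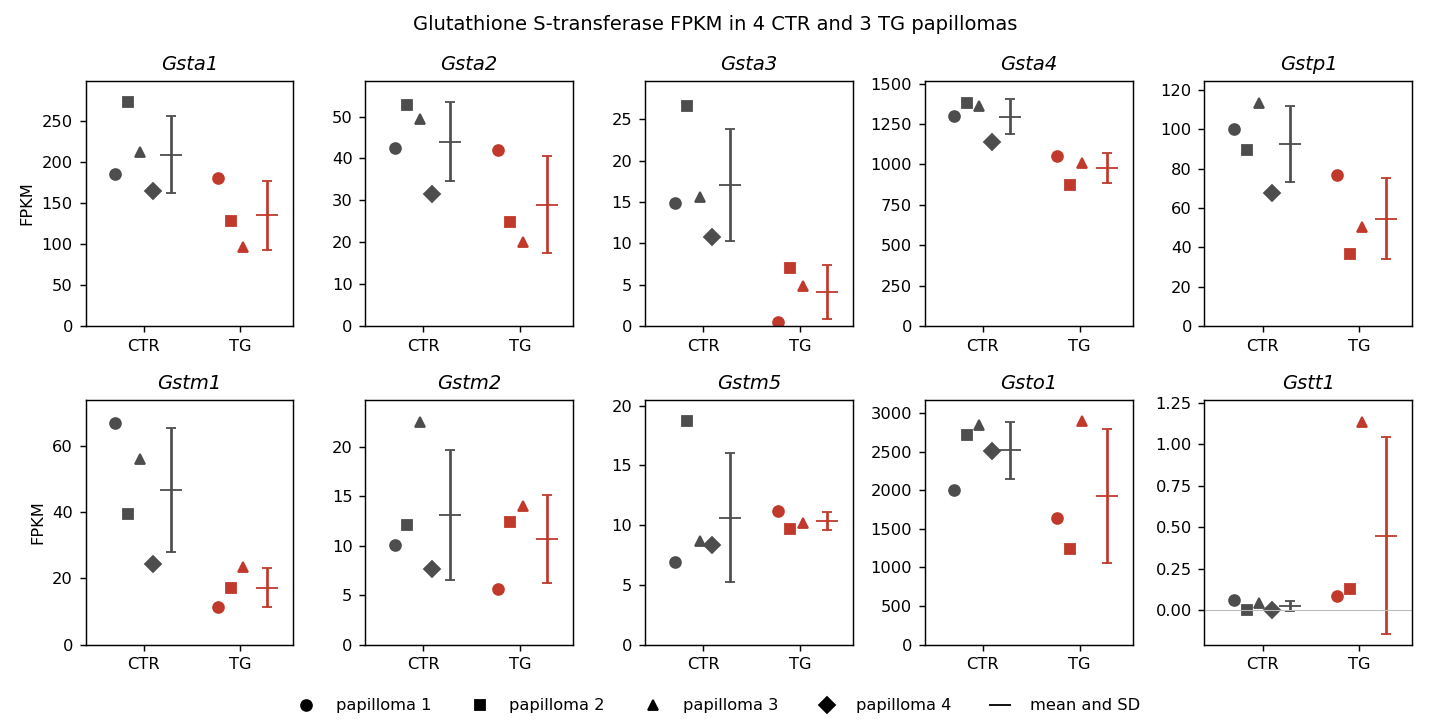
FPKM of each of the 10 members (vertical axes, linear, with a separate scale for each gene) in 4 CTR (grey) and 3 TG (red) papillomas, with the mean and SD of each group beside the points. TG values lie below all CTR values for *Gsta3*, *Gsta4* and *Gstm1*, and the groups overlap for *Gsta1*, *Gsta2*, *Gstp1*, *Gstm2*, *Gstm5* and *Gsto1*.

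In the alpha class all 4 members had a lower mean in TG, by different amounts. *Gsta3*, which is known in mice for detoxifying the epoxide of aflatoxin, had 14.9, 26.6, 15.6 and 10.8 FPKM in CTR 1 to 4 and 0.519, 6.99 and 4.83 in TG 1 to 3. All TG papillomas were lower than all CTR papillomas, and TG 1 was lower than the other TG papillomas. The means were 17.0 ± 6.77 FPKM in CTR (SD, n = 4) and 4.11 ± 3.29 in TG (SD, n = 3). The difference was -2.27 on the log2(FPKM + 0.5) scale (SE 0.62, adjusted p = 0.587 in limma). The exact two-sided permutation test of the same difference gave p = 0.0286. The TG 1 value rests on about 13 reads, and between 103 and 627 reads lay behind the other values. Without TG 1 the difference was -1.39, and without TG 3 it was -2.59.

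*Gsta4*, whose enzyme conjugates 4-hydroxynonenal, a product of lipid peroxidation, had 1299.9, 1379, 1359.8 and 1139 FPKM in CTR papillomas and 1049, 871 and 1007 in TG papillomas. The groups did not overlap, and they were the tightest of the family in CTR, with a coefficient of variation of 8.41% in CTR and 9.55% in TG. Means were 1294 ± 109 FPKM (SD, n = 4) and 976 ± 93.2 (SD, n = 3), a difference of -0.41 (log2, SE 0.21, adjusted p = 0.809 in limma). The 95% interval of the difference ran from -0.88 to 0.07. The exact permutation p was 0.0571, and without TG 3 the difference was -0.43.

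*Gsta1* and *Gsta2* encode alpha enzymes that are known to be inducible by antioxidants and by aromatic hydrocarbons. *Gsta1* had 185, 272, 211 and 165 FPKM in CTR and 179.8, 128 and 96.6 in TG. *Gsta2* had 42.5, 52.7, 49.4 and 31.6 FPKM in CTR and 42.0, 24.8 and 19.95 in TG. For both genes TG 1 lay within the CTR range, and TG 2 and TG 3 lay below it. The difference was -0.64 for *Gsta1* (log2, SE 0.26, adjusted p = 0.705 in limma) and also -0.64 for *Gsta2* (log2, SE 0.28, adjusted p = 0.729 in limma). The *Gsta1* to *Gsta2* ratio stayed between 4.28 and 5.23 in all 7 papillomas, but these genes share reads. The sum of *Gsta1*, *Gsta2*, *Gm3776* and *Gm10639* was 464 ± 106 FPKM in CTR (SD, n = 4) and 299.1 ± 100.6 in TG (SD, n = 3), with an exact permutation p of 0.114. Without TG 3 the differences were -0.43 for *Gsta1* and -0.41 for *Gsta2*.

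*Gstp1* belongs to the pi class, which is known from knockout mice to limit papilloma formation under DMBA and TPA. *Gstp1* had 100.2, 89.7, 114 and 67.7 FPKM in CTR and 76.9, 36.9 and 50.2 in TG. TG 1 again lay within the CTR range, and TG 2 and TG 3 lay below it. Means were 92.8 ± 19.4 FPKM (SD, n = 4) and 54.7 ± 20.4 (SD, n = 3), a difference of -0.80 (log2, SE 0.27, adjusted p = 0.687 in limma, exact permutation p = 0.0857). The sum with its near copy *Gstp2* was 146 ± 28.6 FPKM in CTR (SD, n = 4) and 85.5 ± 31.7 in TG (SD, n = 3). Its difference of -0.81 (log2) had the same exact permutation p. Without TG 3 the *Gstp1* difference was -0.77.

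Among the mu genes the values diverged. *Gstm1*, an enzyme with broad activity on aromatic epoxides, had 66.9, 39.3, 55.9 and 24.4 FPKM in CTR papillomas and 11.3, 17.0 and 23.3 in TG papillomas. All TG values were below all CTR values, but CTR 4 and TG 3 were close to each other. Means were 46.6 ± 18.7 FPKM (SD, n = 4) and 17.2 ± 5.98 (SD, n = 3), a difference of -1.37 (log2, SE 0.36, adjusted p = 0.564 in limma, exact permutation p = 0.0571). Without TG 3 it was -1.62, and in the 5 papillomas of lower depth it was -0.99.

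*Gstm2*, the gene next to it, had 10.04, 12.1, 22.5 and 7.61 FPKM in CTR and 5.61, 12.4 and 14.0 in TG. The groups overlapped throughout, and a TG value was below a CTR value in 6 of 12 pairs. The difference was -0.26 (log2, SE 0.40, adjusted p = 0.950 in limma), with a 95% interval from -1.17 to 0.64. *Gstm5*, a mu gene best known from brain and testis, had 6.87, 18.7, 8.66 and 8.33 FPKM in CTR and 11.2, 9.68 and 10.1 in TG. The 3 TG values lay close together, above all CTR papillomas but CTR 2. The mean FPKM was slightly lower in TG (10.3 against 10.6 in CTR), whereas the log2 difference was 0.06 (SE 0.30, adjusted p = 0.988 in limma, 95% interval from -0.63 to 0.76). Without TG 3 the differences were -0.50 for *Gstm2* and 0.08 for *Gstm5*. The sign of both genes changed with the processing. *Gstm2* was 0.42 in the papillomas of lower depth and *Gstm5* was -0.0090 after quantile normalization.

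*Gsto1*, the omega enzyme, reduces dehydroascorbate and forms mixed disulfides with glutathione more than it conjugates electrophiles. It had 2003, 2724, 2847 and 2511 FPKM in CTR and 1638, 1234 and 2908 in TG. TG 1 and TG 2 were below every CTR papilloma, and TG 3 was above every CTR papilloma. The difference was -0.47 (log2, SE 0.33, adjusted p = 0.842 in limma, exact permutation p = 0.257), and it was -0.81 without TG 3 and -0.20 without TG 2. TG 3 is also the papilloma with the high muscle and fibroblast markers and the low suprabasal keratinocyte markers, whose part in this value was not tested.

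*Gstt1*, the theta enzyme, was listed at 0.0628, 0, 0.0432 and 0 FPKM in CTR and 0.0871, 0.129 and 1.13 in TG. These values correspond to about 1, 0, 1 and 0 reads in CTR and 2, 2 and 16 reads in TG, so the order of the groups rests on single reads in all papillomas but TG 3. The exact permutation p was 0.0286, and no fold change is given for values at this depth. In TG 3 markers of muscle and fibroblasts were also high, and their part in the *Gstt1* value was not tested.

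**Figure D3:**
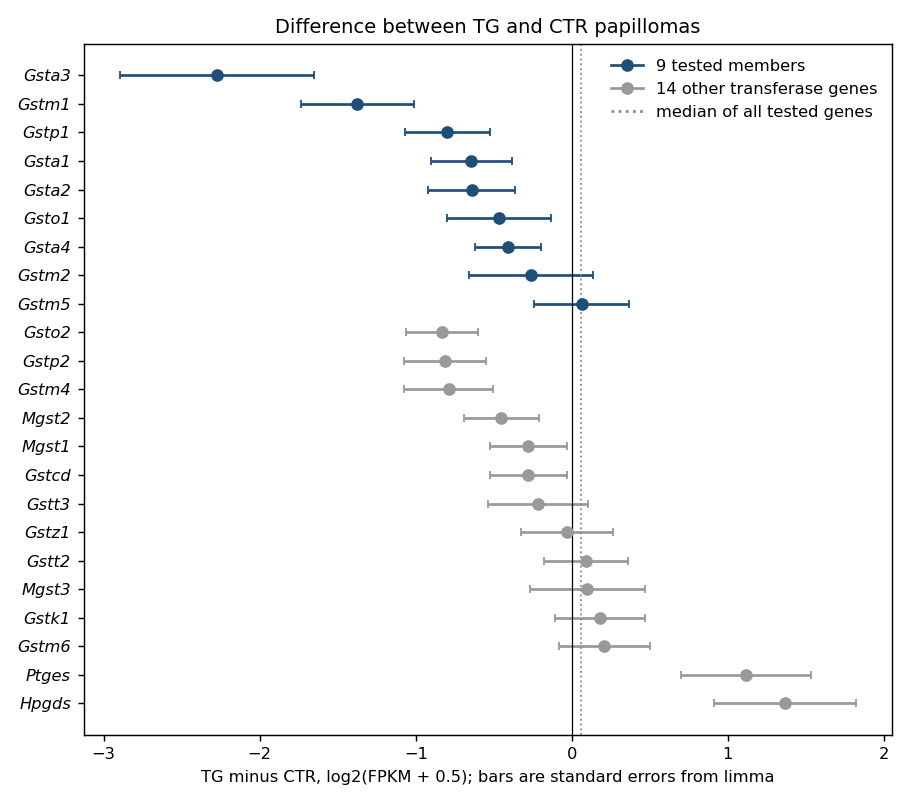
Difference between 3 TG and 4 CTR papillomas on the log2(FPKM + 0.5) scale (horizontal axis) for the 9 tested members (blue) and 14 other tested transferase genes (grey), with standard errors from limma as bars and the median of all tested genes as a dotted line. *Gsta3* at -2.27 and *Gstm1* at -1.37 lie farthest to the left, *Gstm5* lies at 0.06, and no gene passed the adjusted threshold.

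The libraries were also compared within sets of like depth, since CTR 3 and TG 1 were deeper. In CTR 1, CTR 2, CTR 4, TG 2 and TG 3 the same 5 members were lower at an unadjusted p under 0.05, as were 1.41% of all genes, and the median difference of the members was -0.86. The deeper set holds 1 papilloma of each group and gives no test. Without TG 3, 4 members were lower at an unadjusted p (*Gsta3*, *Gstm1*, *Gsto1* and *Gstp1*), and 4.35% of all genes were. Without TG 2 only *Gsta3* and *Gstm1* were, beside 0.984% of all genes. Without CTR 2 or without CTR 3 only these and *Gstp1* were, beside 2.19% and 1.08% of all genes. *Gsta3* and *Gstm1* were the 2 members that were lower at an unadjusted p in all 20 alternatives.

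The promoters of *Gsta3*, *Gstm1* and *Gstp1*, the members with the lowest TG values relative to CTR, are shown because the genes of this family are textbook targets of factors that bind short motifs close to the start. The 250 bases before the RefSeq transcript start are given on GRCm38.p6, read in the direction of the gene. Capitals mark matches to 4 motifs: the core of the antioxidant response element bound by Nrf2 (TGACNNNGC), the AP-1 site (TGACTCA or TGAGTCA), the core of the xenobiotic response element (GCGTG) and TATAAA. All but the last were searched on both strands. *Gsta3* lies at chr1:21240335-21240584 (plus strand), *Gstm1* at chr3:108017819-108018068 (minus strand) and *Gstp1* at chr19:4037913-4038162 (minus strand).
Gsta3: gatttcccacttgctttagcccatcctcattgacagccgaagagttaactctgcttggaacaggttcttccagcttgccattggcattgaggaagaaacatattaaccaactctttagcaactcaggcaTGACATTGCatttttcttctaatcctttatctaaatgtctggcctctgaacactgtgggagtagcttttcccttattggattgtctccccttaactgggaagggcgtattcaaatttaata
Gstm1: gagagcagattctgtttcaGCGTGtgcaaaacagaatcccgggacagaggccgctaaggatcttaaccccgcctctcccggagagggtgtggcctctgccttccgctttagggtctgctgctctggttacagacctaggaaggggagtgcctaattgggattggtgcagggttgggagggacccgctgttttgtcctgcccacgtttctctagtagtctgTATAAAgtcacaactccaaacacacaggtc
Gstp1: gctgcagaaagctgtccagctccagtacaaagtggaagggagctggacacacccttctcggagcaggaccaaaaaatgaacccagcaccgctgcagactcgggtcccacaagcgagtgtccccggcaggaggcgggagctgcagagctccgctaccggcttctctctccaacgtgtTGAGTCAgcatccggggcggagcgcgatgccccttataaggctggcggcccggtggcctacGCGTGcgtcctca

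*Gsta3* held the antioxidant response element core TGACATTGC 121 bases before the start. In the window shown, *Gstm1* held TATAAA at 30 bases and GCGTG at 231. A second RefSeq window of *Gstm1* (chr3:108017974-108018223, minus strand) overlaps the window shown. It held the same GCGTG, there at 76 bases, and no TATAAA. The second window borders the gene position given above, and the window shown lies partly inside that position. *Gstp1* held the AP-1 site TGAGTCA at 74 bases and GCGTG at 13. Of the 9 members with a RefSeq window, 2 held the antioxidant response element core, *Gsta3* and *Gstm5*, and it occurred in 10.2% of 32851 windows of the same length. In *Gstm5* the match at 42 bases (TGACCACGC) overlaps a GCGTG match on the other strand, and its AP-1 site TGACTCA at 176 overlaps another. The AP-1 site occurred in 2 of the 9, *Gstm5* and *Gstp1*, and in 4.46% of all windows. GCGTG occurred in *Gsta2*, *Gstm1*, *Gstm5* and *Gstp1* and in 28.2% of all windows, and TATAAA in *Gstm1* and in 7.59%. *Gsta3* and *Gstm5*, which both held the core motif, had differences of -2.27 and 0.06, and the part of the motif in them was not tested. A match is a description of letters and not of binding.

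The genes most like the leading members in their values over the papillomas were sought among the 6706 genes whose mean was 5 FPKM or more. Likeness was the root mean square (RMS) difference of log2(FPKM + 0.5) values after each gene was centered on its mean over 7 papillomas, a description with no test. The 3 genes most like *Gstm1* were *Gclm*, the modifier subunit of the enzyme that limits glutathione synthesis (RMS 0.385), *Ptgr1*, which reduces leukotriene B4 and reactive alkenals (RMS 0.388), and *Ccbl1*, a lyase that acts on cysteine conjugates (RMS 0.3999). *Gclm* had 103, 96.6, 118 and 77.3 FPKM in CTR and 30.7, 63.1 and 71.4 in TG. *Ccbl1* had 60.7, 73.6, 59.4 and 33.8 FPKM in CTR and 25.1, 24.3 and 34.8 in TG. As with *Gstm1*, CTR 4 was the lowest CTR papilloma for *Gclm*, *Ptgr1* and *Ccbl1*, and for *Ccbl1* it lay below TG 3.

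For *Gsta3* the nearest genes were *Aldh3a1*, an aldehyde dehydrogenase of surface epithelia (RMS 0.495), *Sprr3*, a small proline-rich protein of cornified epithelia (RMS 0.759), and *Lass4*, a ceramide synthase (RMS 0.762). *Aldh3a1* had 75.5, 244, 119 and 64.3 FPKM in CTR and 3.18, 25.1 and 38.4 in TG. As with *Gsta3*, CTR 2 was the highest and TG 1 the lowest papilloma for these 3 genes. Without TG 3 the differences between TG and CTR were -1.14 for *Gclm*, -1.29 for *Ptgr1*, -1.13 for *Ccbl1*, -3.50 for *Aldh3a1*, -2.87 for *Sprr3* and -2.04 for *Lass4* (log2). Of these 6, *Lass4* then passed the adjusted threshold (adjusted p = 0.0462 in limma, against 0.550 with all papillomas). The 6 genes were chosen for likeness to members that were low in TG in these same papillomas. Their lower values in TG therefore follow from that choice and are no separate result. *Gclm*, *Ptgr1* and *Aldh3a1* were also members of the lists described next.

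**Figure D4:**
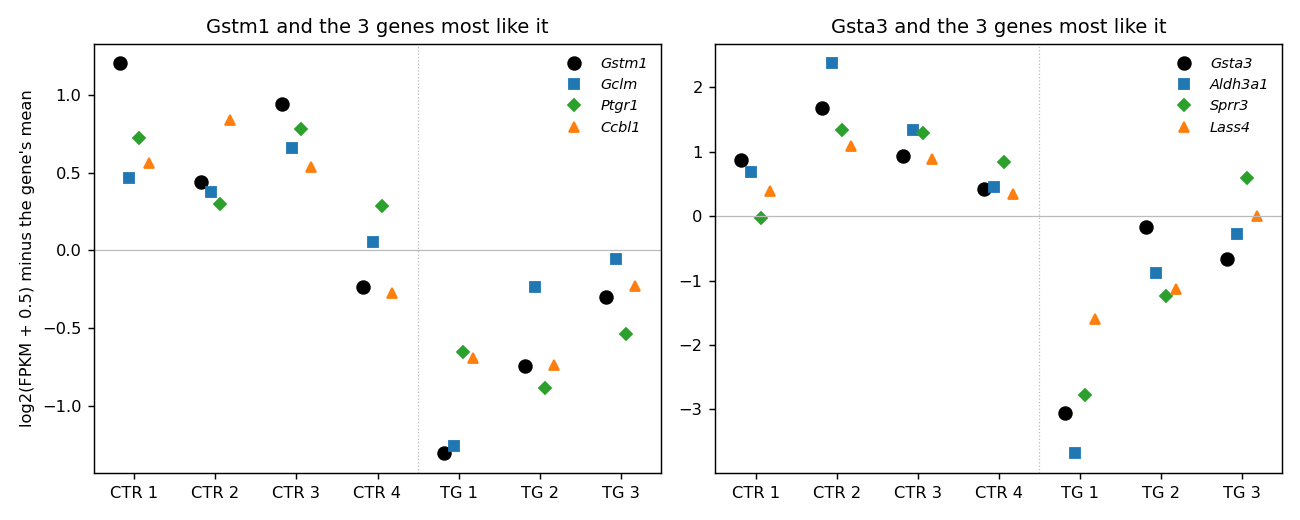
Log2(FPKM + 0.5) of *Gstm1* (left) and *Gsta3* (right), in black, and of the 3 genes most like each, in color, in 4 CTR and 3 TG papillomas, each gene centered on its mean over the 7 papillomas. The genes on the right share a low value in TG 1 and a high one in CTR 2, and on the left *Gclm* follows *Gstm1* down to TG 1, which was 30.7 FPKM for *Gclm*.

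Other genes of glutathione metabolism were read from lists by role. Their counts at an unadjusted p stand beside 4.86% of all genes higher and 1.96% lower in TG. Every TG papilloma lay above every CTR papilloma for 4.93% of all genes and below for 2.23%. Among 18 other transferase genes, 14 were tested, and at an unadjusted p under 0.05, 2 were higher and 3 were lower in TG, with a median difference of -0.12. *Gsto2*, the second omega gene, was low in all papillomas, with 1.698 ± 0.45 FPKM in CTR (SD, n = 4) and 0.715 ± 0.018 in TG (SD, n = 3), and did not overlap (adjusted p = 0.587 in limma). *Gstp2*, the near copy of *Gstp1*, differed by -0.81 (log2, adjusted p = 0.653 in limma). *Hpgds*, a sigma-class transferase that makes prostaglandin D2, went the other way, by 1.36 (log2, adjusted p = 0.686 in limma). It had between 1.49 and 4.25 FPKM in CTR and 7.41, 11.1 and 2.75 in TG, so that CTR 4 lay above TG 3.

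For glutathione synthesis and turnover, 20 of 22 genes were tested, and 0 were higher and 3 lower at an unadjusted p, with a median of -0.08. These 3 were *Gclc*, *Gclm* and *Slc3a2*. *Gclc*, the catalytic subunit of glutamate-cysteine ligase, had 60.3, 37.7, 32.4 and 39.8 FPKM in CTR and 18.1, 28.2 and 18.0 in TG. No TG papilloma reached the lowest CTR papilloma. The difference was -0.96 (log2, SE 0.25, adjusted p = 0.564 in limma, exact permutation p = 0.0286). *Gclm* differed by -0.91 (log2, adjusted p = 0.664 in limma), so for both subunits of the ligase every TG papilloma lay below every CTR papilloma. *Slc3a2*, the heavy chain of the cystine transporter, differed by -0.45 (log2, adjusted p = 0.729 in limma).

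All 16 glutathione peroxidases and other users of glutathione were tested, and 0 were higher and 2 lower at an unadjusted p, with a median of -0.02. *Gpx2*, an epithelial peroxidase and known Nrf2 target, had 332, 343, 379 and 261 FPKM in CTR and 259.96, 123 and 161 in TG. The groups did not overlap, although TG 1 and CTR 4 nearly met (difference -0.92 in log2, adjusted p = 0.608 in limma). *Esd*, which hydrolyzes S-formylglutathione, differed by -0.70 (log2, adjusted p = 0.702 in limma), and *Gpx7*, a peroxidase of the endoplasmic reticulum, differed by 0.76 (log2, adjusted p = 0.813 in limma) at levels of at most 2.295 FPKM.

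Of 8 genes for the export of conjugates, 6 were tested, and 5 of these had a higher mean log2 value in TG. At an unadjusted p, 3 were higher and 0 lower, with a median of 0.60. *Abcc5* and *Abcg2*, transporters of the ABC family, each had every TG value above every CTR value. *Abcc5* had 1.36, 3.81, 3.80 and 3.98 FPKM in CTR and 4.31, 6.90 and 6.26 in TG, a difference of 0.82 (log2, adjusted p = 0.713 in limma). *Abcg2* had 1.90, 3.26, 2.66 and 3.58 FPKM in CTR and 3.84, 6.43 and 3.68 in TG, a difference of 0.61 (log2, adjusted p = 0.720 in limma). For *Abcg2* TG 3 was hardly above CTR 4, and for *Abcc5* CTR 1 lay far below the other CTR papillomas.

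Of 23 genes for Nrf2 and its targets outside the lists above, 22 were tested, and 1 was higher and 2 lower at an unadjusted p, with a median of -0.16. *Ptgr1* differed by -1.22 (log2, SE 0.20, adjusted p = 0.498 in limma). *Cbr3*, a carbonyl reductase, differed by -0.64 (log2, adjusted p = 0.705 in limma). *Sqstm1*, the autophagy receptor p62, differed by 0.48 (log2, adjusted p = 0.729 in limma), with 64.2 FPKM in TG 3 against 39.1 and 36.3 in TG 1 and TG 2. Of 16 genes for the first phase of xenobiotic and hydrocarbon metabolism, 12 were tested, and 1 was higher and 2 lower at an unadjusted p, with a median of 0.35. *Aldh3a1* differed by -2.83 (log2, SE 0.77, adjusted p = 0.587 in limma). *Aldh1a3*, which makes retinoic acid from retinaldehyde, differed by 2.26 (log2, adjusted p = 0.646 in limma). The paper's own comparison of these papillomas, by another method, lists *Aldh1a3* among the genes upregulated in TG. *Adh7*, an epithelial alcohol dehydrogenase that oxidizes retinol, differed by -1.50 (log2, adjusted p = 0.702 in limma). None of the 6 lists held a gene past the adjusted threshold, with or without TG 3. Without TG 3 the list medians were -0.32 for other transferases, -0.27 for synthesis and turnover, 0.12 for peroxidases and other users, 0.75 for conjugate export, -0.10 for Nrf2 and its targets and 0.31 for phase I metabolism, so the sign of the peroxidase list turned. For synthesis and turnover 3 genes were then higher and 4 lower at an unadjusted p, beside 5.23% and 4.35% of all genes. *Gclc* was then -0.86 and *Gpx2* -0.87 (log2).

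**Figure D5:**
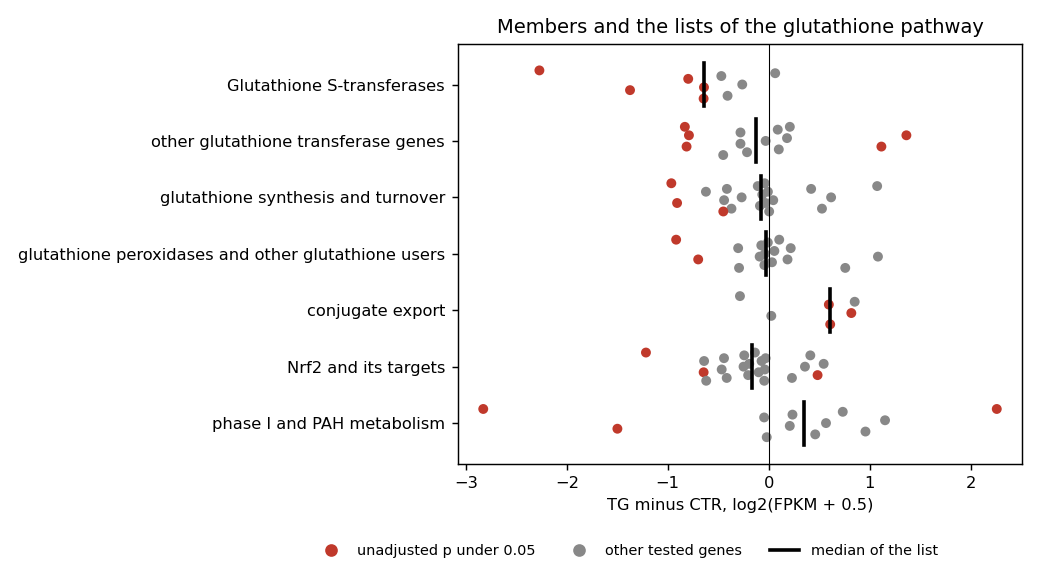
Difference between 3 TG and 4 CTR papillomas on the log2(FPKM + 0.5) scale (horizontal axis) for each tested gene of the members and of the 6 lists, with genes at an unadjusted p under 0.05 in red and the median of each list as a black bar. The median was -0.64 for the members and between -0.16 and -0.02 for the lists of other transferases, synthesis, peroxidases and Nrf2, and it was 0.60 for conjugate export and 0.35 for phase I metabolism.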

How the data were processed

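RNA-seq libraries of polyA+ RNA from 4 CTR and 3 TG papillomas were analyzed, grouped by the sample labels. The authors mapped 40-base single reads to the mouse genome (GRCm38, mm10) using TopHat2 2.0.4, Bowtie 0.12.7 and SAMtools 0.1.16, accepted up to 2 mismatches and 5 hits, and deposited FPKM values for genes from Cufflinks 1.3.0, each with a confidence interval. FPKM is the number of fragments per kilobase of transcript, scaled to the mapped total. No counts were used, and depth was inferred from the intervals, which cover counting error only. Labels name Trizol with the RNeasy Mini kit for the RNA, and the paper names another RNeasy kit.

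Entries of one symbol were summed, and 162 symbols with a failed estimate in any papilloma were left out, which concerned no member. Log2(FPKM + 0.5) values of genes whose mean reached 0.5 FPKM were fitted with limma 3.58.1 in R 4.3.3, with a variance trend and Benjamini-Hochberg adjustment over all 12299 genes. Single genes were compared by exact two-sided permutation of group labels. Python 3.11.15, numpy 2.4.6, pandas 2.3.3, scipy 1.17.1 and matplotlib 3.10.9 were used, and the fit was tested on simulated data. P-values measure the spread between these papillomas, which came from different mice. Shared sequence was computed from the longest coding transcript of each gene in GENCODE M21, and promoters came from RefSeq (GRCm38.p6), which held a window for 9 of the 10 members.

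Named genes were all members, *Nanog*, the 3 genes with the smallest limma p in each list, and the 3 genes most like each of the 2 members with the smallest p. The values of 1 gene from these lists are not reported here. Near copies were added after their values were seen. The members and lists were chosen with earlier results of these data known. 19 alternatives and 1 chosen after seeing the data (papillomas of lower depth only) were tried. The authors' Cuffdiff comparison could not be rerun from FPKM values. The paper reports that its comparison found a small number of genes higher in TG, whereas the main fit here called none.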

Additional observations from a re-analysis of the deposited data

Results flagged for a closer look

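Among the genes named, 4 of 35 CTR groups held a papilloma whose gap to the nearest other value was larger than Dixon's critical share of the range for 4 samples. Chance marks about 1 in 20 groups of independent, normally distributed values. FPKM values of genes that share reads or were chosen for likeness need not be such, so no excess is read from the count. *Gstm5* was 18.7 FPKM in CTR 2, against 6.87 to 8.66 in the other CTR papillomas, and without CTR 2 its log2 difference was 0.36. *Hpgds* was 4.25 FPKM in CTR 4, against 1.49 to 1.74. *Abcc5* was 1.36 FPKM in CTR 1, against 3.80 to 3.98. *Nanog* was 12.7 FPKM in CTR 3, a papilloma without the transactivator, against 2.70 to 3.34. The *Gstm1* and *Gsta3* values of CTR 3 (55.9 and 15.6 FPKM) lay inside the range of the other CTR papillomas.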

How the results depend on the processing

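No member passed the adjusted threshold under any of the 20 alternatives (smallest adjusted p 0.0799 in limma, for *Gstp1* under sample quality weights, which ranged up to 0.999 under the others). The count of members lower at an unadjusted p, 5 here, was 3 under upper-quartile scaling (3.42% of all genes), 7 with sample quality weights (10.1%) and 2 to 5 when 1 papilloma was left out (0.984% to 4.35%). With sample quality weights 49 genes were higher and 36 lower after adjustment, and in the papillomas of lower depth 1 was higher. Leaving out 1 papilloma gave 0 to 9 genes higher and 0 to 8 lower, the most without TG 3. At an unadjusted p, sample quality weights gave 1161 genes higher and 1248 lower. *Gstm5* changed sign under quantile normalization (-0.0090), the replicate block (-0.0118) and in the papillomas of lower depth (-0.0493), and ranged from -0.10 to 0.36 when 1 papilloma was left out. *Gstm2* was 0.42 in the papillomas of lower depth and ranged from -0.50 to 0.13 when 1 was left out. The cause was not tested. The other 7 members kept their sign in all alternatives, from -2.83 to -1.39 for *Gsta3*, -1.65 to -0.99 for *Gstm1*, -1.07 to -0.55 for *Gstp1* and -0.88 to -0.20 for *Gsto1*. The median over all genes, 0.06 here, ranged up to 0.13 (lower depth) and changed sign under quantile normalization (-0.0323), sample quality weights (-0.0296) and without TG 3 (-0.0296).

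The labels of both groups share replicate numbers, but no source states a pairing. The correlation of deviations between papillomas of the same number was -0.19, 0.04 and -0.15 for numbers 1 to 3, and CTR 3 was most like TG 1 (0.31). A fit with a replicate block called 0 genes in either direction, with 4 members lower at an unadjusted p (*Gsta2*, *Gsta3*, *Gstm1* and *Gstp1*, beside 1.38% of all genes) and a median of -0.75. CTR 4 has no TG papilloma of its number and does not enter that difference.

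Depth limits *Gstt1*, at 16 reads or fewer in every papilloma, and *Gsta3* in TG 1, at about 13 reads.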
